A study of Mus musculus with 4 samples.

Results

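Piezo1 and Piezo2 were followed in mouse bone marrow stroma and endothelium as 2 of the 32285 genes counted in each of 4 single-cell RNA libraries. Both rows were taken by gene symbol, and their UMIs (unique molecular identifiers, each standing for 1 captured RNA molecule) were counted per cell and per marker-defined class. The pair was selected on its levels and its per-cell detection across these classes and libraries, so its differences between libraries and classes are given as descriptions with counting intervals and no test.

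Piezo1 and Piezo2 encode very large membrane proteins that assemble as trimers and open a cation pore when the membrane is stretched. Piezo1 is the channel through which endothelial cells sense blood flow and through which bone-forming cells sense load. Piezo2 is best known from sensory neurons, where it serves touch and the sense of limb position, and from Merkel cells of the skin. Marrow sinusoids are wide, thin-walled venous vessels that drain the marrow, and leptin receptor (LepR) stromal cells surround them and supply Cxcl12 and Kitl to blood-forming cells.

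All groups were C57BL/6 mice of genotype Rag2-/-gammac-/-, which have no B, T or natural killer cells of their own. Graft_D40 and Graft_D19 were femurs injected with DOHH2, a human follicular lymphoma B cell line, and taken at day 40 (labelled late tumour stage) and day 19 (early). Sham_D40 femurs received PBS and were taken at day 40, and Ctrl femurs were left ungrafted. Each group is 1 library. The labels do not say how many mice each holds or how old they were. No value below has a replicate check. Cells were depleted of Cd45 and Ter119 cells and sorted as Cd31-negative Cd51+ Cd200+ stroma and as Cd31+ Sca1+ endothelium, with human CD20+ lymphoma cells also sorted, so the sizes of classes follow the sort.

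The 2 genes lie apart in the mouse genome (build mm10). Piezo1 (ENSMUSG00000014444) spans 69.6 kb on the minus strand at chr8:122481698-122551329, and its longest transcript has 51 exons. Piezo2 (ENSMUSG00000041482) spans 377 kb on the minus strand at chr18:63010213-63387183, with 54 exons in its longest transcript. The 3' end of Piezo1 overlaps the 3' part of Ctu2, a tRNA-modifying enzyme gene on the opposite strand, over 2441 bp. Ctu2 had 14.7, 16.1, 15.0 and 16.5 CPM (UMIs scaled to a class total of 1000000) in sinusoidal-like cells of Graft_D40, Graft_D19, Sham_D40 and Ctrl. Whether counting used strand is not stated in the labels or file headers, so reads in that overlap could count for either gene.

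After filters on genes, UMIs and mitochondrial share, 4867, 4813, 4527 and 4074 cells remained in Graft_D40, Graft_D19, Sham_D40 and Ctrl. The median depth was 9796, 8606 and 9020 UMIs per cell in the first 3 libraries and 3549 in Ctrl, so shares of cells with a UMI are given after thinning every cell to 2000 UMIs, beside the unthinned share. The libraries shared between 11 and 15 cell barcodes in each pair. Kept cells held 3471, 3192, 2545 and 1183 Piezo1 UMIs and 1357, 1142, 380 and 33 Piezo2 UMIs in Graft_D40, Graft_D19, Sham_D40 and Ctrl.

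Cells were placed in classes by counting detected markers, with neither Piezo gene among them. The sinusoidal-like class asked for at least 4 of 13 sinusoidal markers and more of these than arterial markers within endothelium, and held 618, 1067, 830 and 1069 cells in the same order of libraries. All 12 general endothelial markers were detected in each library's sinusoidal-like cells, and of the 13 sinusoidal markers 2, 0, 3 and 3 were at 0, namely Cd209b and Clec4g in each library but Graft_D19, and Lyve1 in Sham_D40 and Ctrl. Between 68 and 142 endothelial cells of a library held 3 or 4 sinusoidal markers and so lay next to the limit. The summed level of the 13 markers was 4572, 6669, 9536 and 7499 CPM. Intervals below are exact 95% intervals and cover counting error only. A gene is called higher or lower between 2 libraries where its CPM differ by at least 1.5-fold and the interval of the ratio lies off 1.

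Piezo1 was highest in endothelium and Piezo2 was concentrated in a few classes. Over the 4 libraries Piezo1 averaged 143 ± 8.01 CPM in sinusoidal-like cells (SD, n = 4 libraries of different conditions), 109 ± 29.5 in other endothelium, 101 ± 31.9 in mixed-marker endothelium, 100.5 ± 8.55 in capillary-like cells and 97.2 ± 12.0 in arterial-like cells. The sinusoidal-like class lay above the capillary-like and arterial-like classes in each of the 4 libraries, by more than the spread of either class. The other 4 endothelial classes did not differ from one another beyond their spread.

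Stromal classes held less Piezo1. Fibroblast-like cells averaged 52.3 ± 17.4 CPM, osteolineage-like cells 34.7 ± 4.38, chondrocyte-like cells 30.8 ± 6.99, LepR-like stroma 29.8 ± 7.27 and pericyte-like cells 29.8 ± 6.97 (SD, n = 4). The last 4 of these classes overlapped. Haematopoietic-like cells, a class of 17, 32, 17 and 10 cells, held 0, 3, 0 and 1 Piezo1 UMIs and no Piezo2 UMI in Graft_D40, Graft_D19, Sham_D40 and Ctrl.

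The order of Piezo2 depended on the library. In Graft_D40 it was 186 CPM in mixed-marker endothelium, 113 in sinusoidal-like cells, 58.2 in other endothelium, 37.8 in fibroblast-like cells, 25.4 in arterial-like cells, 19.6 in pericyte-like cells and at most 6.72 in each other class. In Ctrl it was 30.0 CPM in other endothelium and 26.2 in fibroblast-like cells, on 12 and 3 UMIs, and 2.65 in sinusoidal-like cells. The fibroblast-like level itself was 37.8, 44.4, 50.4 and 26.2 CPM in Graft_D40, Graft_D19, Sham_D40 and Ctrl, with overlapping intervals.

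**Figure D1:**
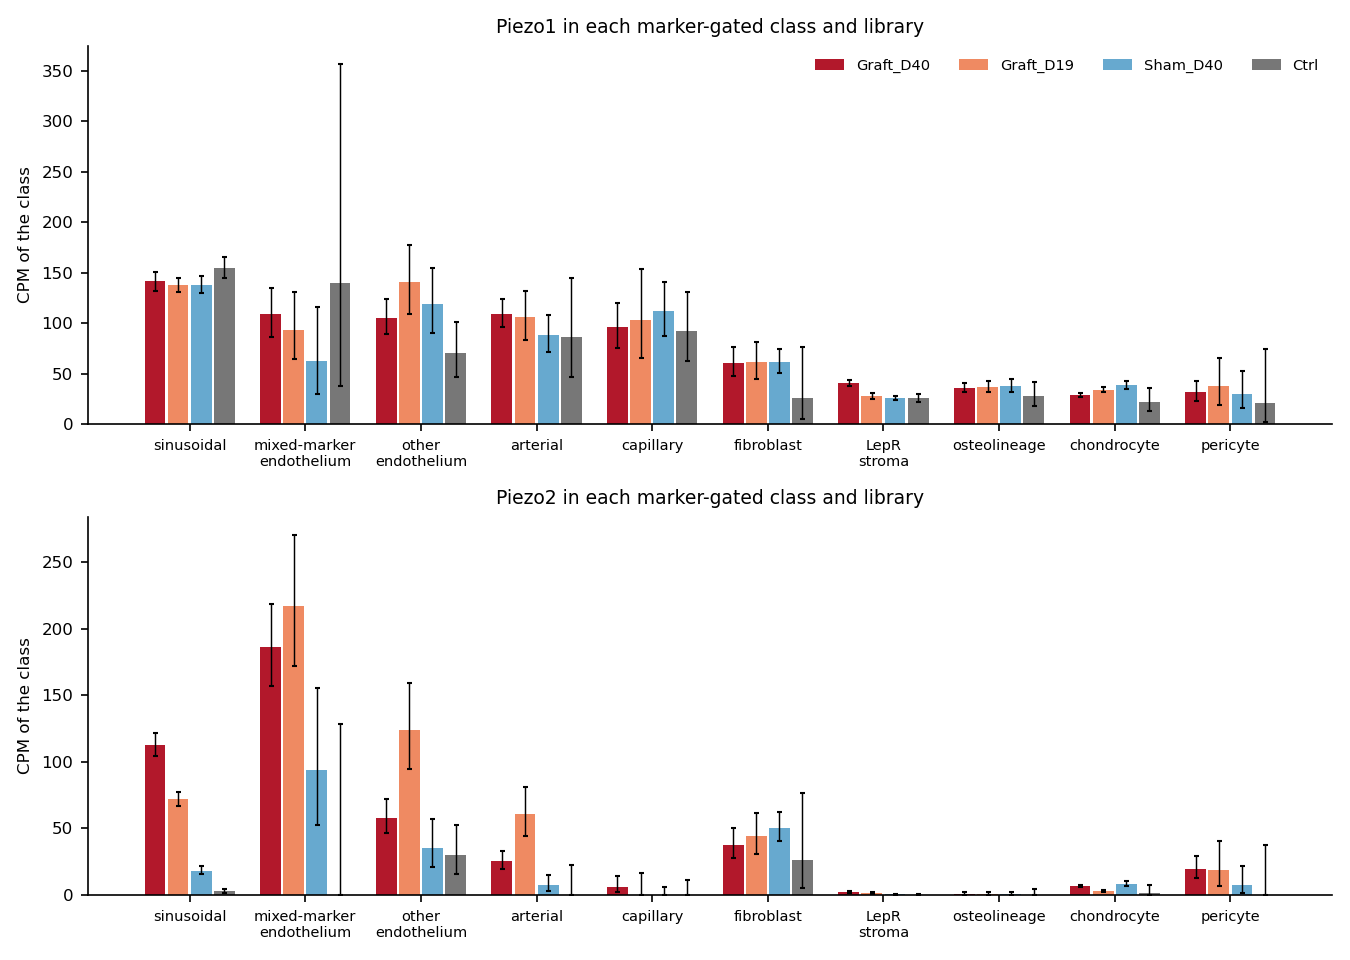
Levels of Piezo1 (top) and Piezo2 (bottom) in CPM, by class along the x axis and by library in colour, with bars for the pooled UMIs of a class and whiskers for exact Poisson intervals. Piezo1 stands between 137 and 155 CPM in the sinusoidal-like class of the 4 libraries, while Piezo2 there is 113, 72.3, 18.4 and 2.65 CPM in Graft_D40, Graft_D19, Sham_D40 and Ctrl.

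In sinusoidal-like cells Piezo2 was higher in both grafted libraries than in both ungrafted ones. It had 713 UMIs in Graft_D40 (113 CPM, 105 to 121) and 759 in Graft_D19 (72.3 CPM, 67.2 to 77.6), against 138 in Sham_D40 (18.4 CPM, 15.4 to 21.7) and 14 in Ctrl (2.65 CPM, 1.45 to 4.45). The 4 intervals did not overlap. The ratio was 6.14 (5.11 to 7.43) for Graft_D40 over Sham_D40 and 27.3 (16.2 to 50.1) for Graft_D19 over Ctrl.

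The ungrafted libraries also differed, with a ratio of 6.93 (3.99 to 13.0) for Sham_D40 over Ctrl, about as large as that of Graft_D40 over Sham_D40. Set against the other ungrafted library, the ratio was 42.6 (25.2 to 78.3) for Graft_D40 over Ctrl and 3.94 (3.28 to 4.75) for Graft_D19 over Sham_D40, so its size rested on which ungrafted library was used and its direction did not. Graft_D19 over Ctrl was also 13.7 when taken as a mean of the cells' own CPM, and 81.4 (31.6 to 300) without the 10 cells of each library with the most Piezo2 UMIs, which left 4 UMIs in Ctrl. The gap between Sham_D40 and Ctrl was also present with cells thinned to equal depth, and the PBS injection and the day cannot be told apart in it.

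Piezo1 moved little in the same cells. It had 893 UMIs in Graft_D40 (141 CPM, 132 to 151), 1443 in Graft_D19 (137 CPM, 130 to 145), 1038 in Sham_D40 (138 CPM, 130 to 147) and 817 in Ctrl (155 CPM, 144 to 166). The ratio was 1.02 (0.935 to 1.12) for Graft_D40 over Sham_D40, 0.889 (0.815 to 0.970) for Graft_D19 over Ctrl and 0.893 (0.814 to 0.980) for Sham_D40 over Ctrl. None of these was called, and the intervals leave no room for a 1.5-fold difference by counting error alone.

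Across all genes at a mean of 5 CPM or more in the class, 8.16% were called higher in Graft_D40 over Sham_D40, 20.8% in Graft_D19 over Ctrl and 20.6% in Sham_D40 over Ctrl, and 7.31% and 7.47% were called lower in the first 2. Piezo2 was called higher in all 3, but it passed the minimum of the last 2 through the group where it is high. The pair was also selected on these levels, so nothing is read from the calls or from the ranks that follow. Its log2 ratio was exceeded by 53 of 10292 genes in Graft_D40 over Sham_D40, by 6 of 10130 in Graft_D19 over Ctrl and by 11 of 10068 in Sham_D40 over Ctrl. Piezo1 lay in the middle or lower part of the same rankings, with 5201, 7682 and 7487 genes above it. The median log2 ratio of all genes in the class was 0.04, 0.19 and 0.20 in the 3 comparisons.

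**Figure D2:**
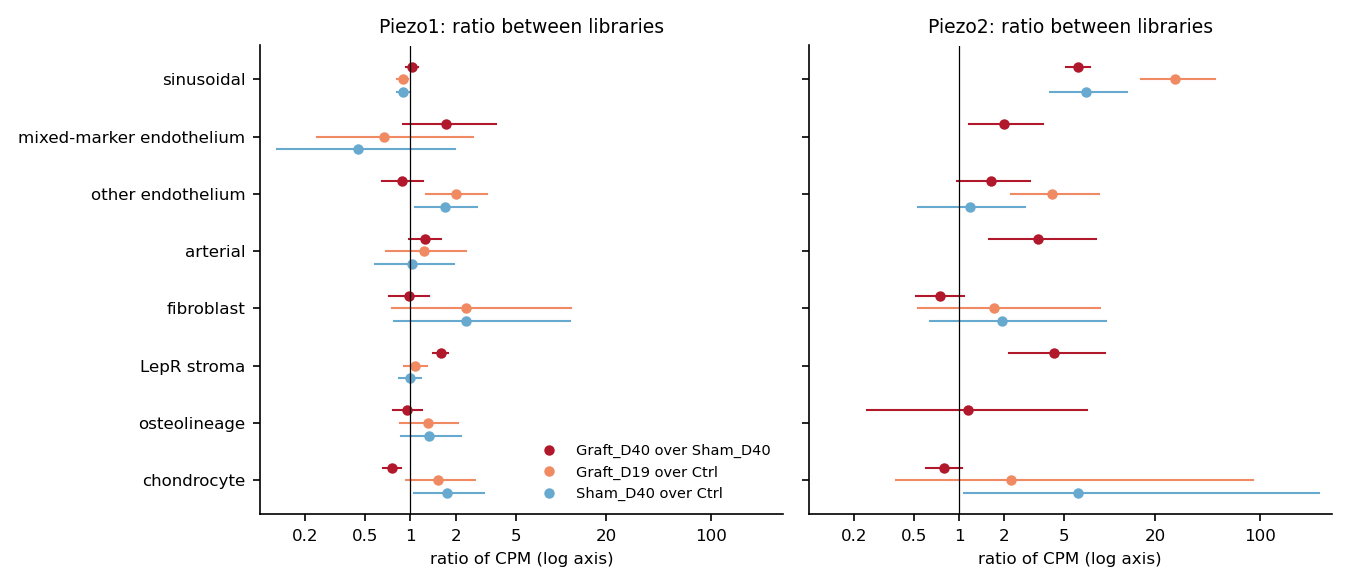
Ratios of CPM between libraries on a log axis for Piezo1 (left) and Piezo2 (right), by class down the page, with points for the ratio and lines for its exact interval; ratios over a library with 0 UMIs are not drawn. Piezo2 ratios in the sinusoidal-like class lie at 6.14, 27.3 and 6.93, while Piezo1 ratios there lie between 0.889 and 1.02.

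Piezo2 was also found in more of the sinusoidal-like cells. With each cell thinned to 2000 UMIs, 17.0% of cells (14.1 to 20.2) held a Piezo2 UMI in Graft_D40 and 8.57% (6.94 to 10.4) in Graft_D19, against 3.20% (2.10 to 4.66) in Sham_D40 and 0.559% (0.182 to 1.30) in Ctrl. Thinning left out 5, 28, 18 and 174 shallower cells in the same order. Without thinning the shares were 41.7%, 25.0%, 8.43% and 1.31%. In LepR-like stroma of the same libraries, 0.311%, 0.0506%, 0% and 0% of thinned cells held a Piezo2 UMI, and 1.08%, 0.390%, 0.351% and 0% unthinned. At median depths of 9072, 9102, 8894 and 4840 UMIs for sinusoidal-like cells, the share was above that of LepR-like stroma in each library. Free RNA was not measured.

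Many cells held several Piezo2 molecules. In Graft_D40, 92 sinusoidal-like cells had 1 Piezo2 UMI, 54 had 2 and 112 had 3 or more, up to 15 in a cell. In Graft_D19 the numbers were 111, 58 and 98, up to 16, and in Sham_D40 they were 37, 18 and 15, up to 7. In Ctrl 14 cells had 1 UMI and none had more. The mean in cells with any Piezo2 UMI was 2.76, 2.84, 1.97 and 1 in Graft_D40, Graft_D19, Sham_D40 and Ctrl. The 10 cells with the most UMIs held 12.8% of the class's Piezo2 UMIs in Graft_D40 and 15.9% in Graft_D19, against 36.2% in Sham_D40.

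Piezo1 UMIs were spread over cells in nearly the same way in every library. A Piezo1 UMI was found in 25.8%, 23.9%, 25.0% and 25.3% of thinned sinusoidal-like cells of Graft_D40, Graft_D19, Sham_D40 and Ctrl. The unthinned shares of 68.1%, 66.1%, 63.3% and 46.6% were lowest in the shallow Ctrl library. For comparison, 7.72%, 4.75%, 5.23% and 5.39% of thinned LepR-like cells and no thinned haematopoietic-like cell held a Piezo1 UMI.

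**Figure D3:**
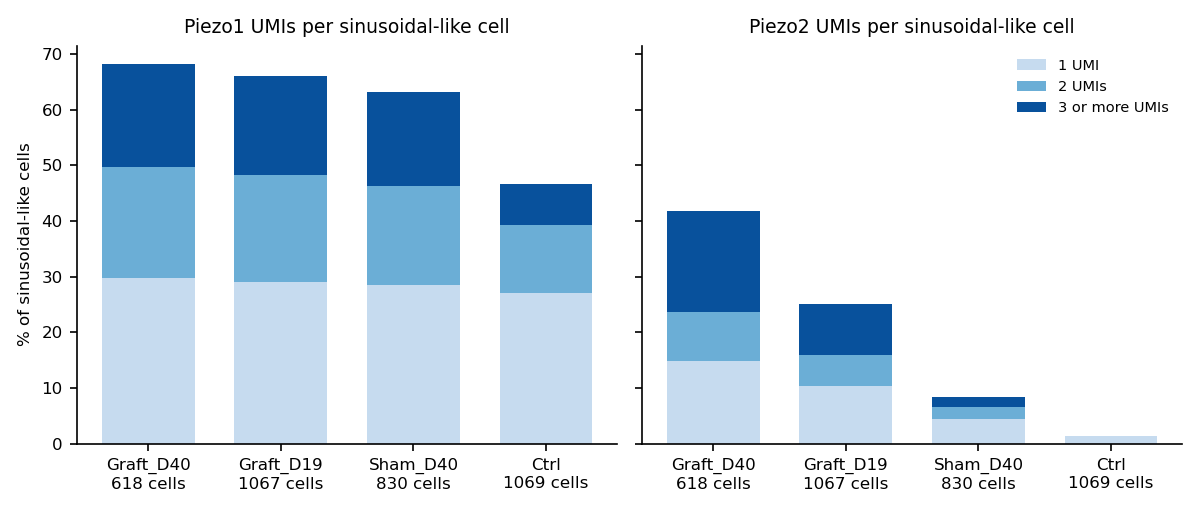
Share of sinusoidal-like cells with 1, 2 and 3 or more UMIs of Piezo1 (left) and Piezo2 (right) in each library, without thinning. The whole Piezo2 bar is 41.7%, 25.0%, 8.43% and 1.31% in Graft_D40, Graft_D19, Sham_D40 and Ctrl, and the bar for Ctrl, the shallowest library, is lower for Piezo1 too at 46.6%.

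Sinusoidal-like cells made up 12.7%, 22.2%, 18.3% and 26.2% of kept cells in Graft_D40, Graft_D19, Sham_D40 and Ctrl, and held 52.5%, 66.5%, 36.3% and 42.4% of all Piezo2 UMIs. The same cells held 25.7%, 45.2%, 40.8% and 69.1% of Piezo1 UMIs. In Sham_D40, fibroblast-like cells held another 22.6% and chondrocyte-like cells 20.0% of Piezo2 UMIs. In Ctrl, other endothelium held 36.4%, which is 12 of 33 UMIs.

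Within the sinusoidal-like class Piezo2 was highest in cells with little Stab2, the scavenger receptor stabilin-2 that defines mature sinusoids. Cells were split at Stab2 levels chosen after the values had been seen. Piezo2 in cells with no Stab2 UMI was 181, 216 and 96.2 CPM in Graft_D40, Graft_D19 and Sham_D40, and 7.47 in Ctrl on 1 UMI. In cells with 20 or more Stab2 UMIs per 10000 it was 23.6, 9.51, 7.45 and 4.16 CPM in the 4 libraries. In Graft_D40 the levels in between were 128, 70.0 and 44.8 CPM as Stab2 went up, in Graft_D19 they were 137, 50.4 and 26.3, and in Sham_D40 they were 63.9, 20.0 and 8.56. In those 3 libraries the Piezo2 level went down at each step of rising Stab2, and the Ctrl cells, with 14 UMIs in all, showed no such order.

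The classes also differed in their Stab2 makeup. Cells with no Stab2 UMI were 21.5%, 8.62%, 4.70% and 4.77% of sinusoidal-like cells in Graft_D40, Graft_D19, Sham_D40 and Ctrl. Cells with 20 or more per 10000 were 2.91%, 15.8%, 27.5% and 20.3%. These shares are unthinned, and the shallow depth of Ctrl raises its share with no Stab2 UMI. Stab2 in the whole class was 498, 1002, 1522 and 1380 CPM. At matched Stab2, Graft_D40 over Sham_D40 was 1.88, 2.00, 3.50, 5.23 and 3.17 for Piezo2, in order of rising Stab2, against 6.14 in the whole class. The first has an interval of 1.25 to 2.96, the fourth of 3.24 to 8.57 and the last, on 3 UMIs in Graft_D40, of 0.584 to 11.4. The Piezo2 ratio was thus above 1 in each range of Stab2, with an interval off 1 in all but the last, and was smaller in each than in the whole class.

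Ramp3, a receptor-activity-modifying protein used as a marker of a subset of sinusoidal cells, divided Piezo2 in the same libraries. Cells with a Ramp3 UMI had 132, 135, 81.1 and 0 CPM of Piezo2 in Graft_D40, Graft_D19, Sham_D40 and Ctrl, and cells without had 87.8, 36.5, 9.16 and 2.84 CPM. Without thinning, cells with a Ramp3 UMI were 48.9%, 28.4%, 12.0% and 5.89% of the class, and the shallow depth of Ctrl lowers its share. The Ramp3 level of the class was 130, 78.1, 29.3 and 15.7 CPM. Graft_D40 over Sham_D40 was 1.63 (1.28 to 2.10) among cells with Ramp3 and 9.59 (7.21 to 12.9) among cells without. Graft_D19 over Ctrl was 15.9 with Ramp3 when the Ctrl cells were set at a floor of 3 UMIs, a value that leaves out counting error. It was 12.9 (7.51 to 23.9) without Ramp3.

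Piezo1 showed a shallower course in the other direction. Over the same 5 ranges of rising Stab2 it was 104, 116, 141, 151 and 162 CPM in Graft_D19 and 112, 122, 146, 162 and 167 CPM in Ctrl. In Graft_D40 it was 138, 129, 157, 161 and 126, and in Sham_D40 139, 111, 147, 132 and 155, with no steady order. By Ramp3, Piezo1 was 143, 133, 134 and 162 CPM in cells with a UMI and 139, 140, 139 and 154 CPM in cells without, in Graft_D40, Graft_D19, Sham_D40 and Ctrl.

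**Figure D4:**
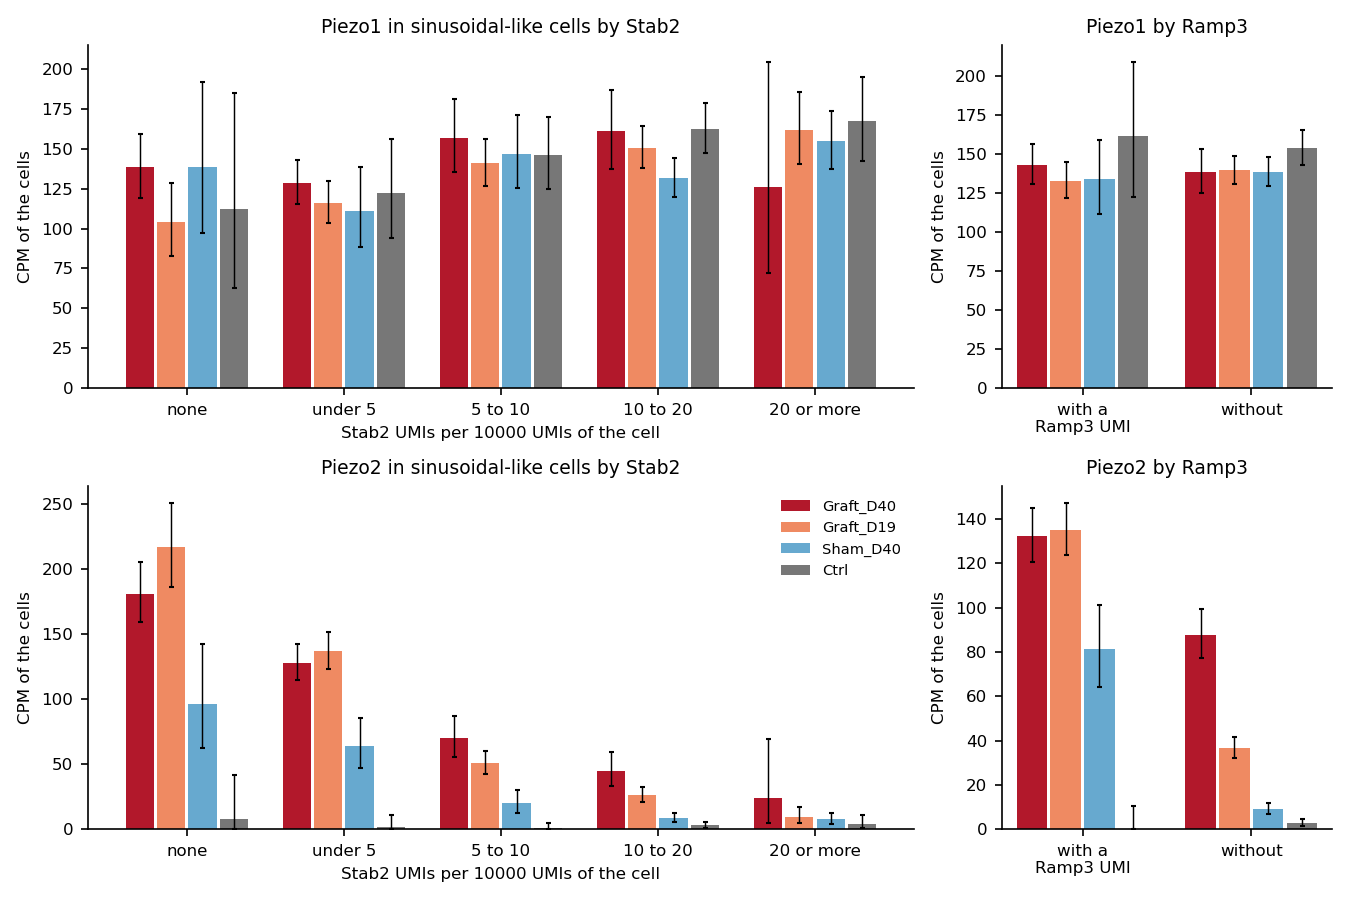
Piezo1 (top) and Piezo2 (bottom) CPM in sinusoidal-like cells, by Stab2 UMIs per 10000 UMIs of the cell (left) and by presence of a Ramp3 UMI (right), with exact Poisson intervals as whiskers. Piezo2 is 181, 216 and 96.2 CPM in cells with no Stab2 UMI of Graft_D40, Graft_D19 and Sham_D40 and 23.6, 9.51 and 7.45 CPM in their cells with 20 or more, while Piezo1 lies between 104 and 167 CPM in all Stab2 ranges.

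Cells were also split by the number of sinusoidal and of arterial markers they held. Stab2 is among the 13 sinusoidal markers, so that split is not separate from the split by Stab2. In cells with 8 or more of the 13 sinusoidal markers, Piezo2 was 76.3, 47.6, 12.3 and 2.60 CPM in Graft_D40, Graft_D19, Sham_D40 and Ctrl, against 161, 179, 97.3 and 0 CPM in cells with 4 or 5. By arterial markers, sinusoidal-like cells with 3 or more had 130, 110.5, 25.9 and 1.58 CPM of Piezo2, and those with none had 107.5, 42.9, 4.94 and 2.64. The Piezo2 difference between Graft_D40 and Sham_D40 was thus present in cells with no arterial marker.

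Markers of other cells were present in the sinusoidal-like class and differed between libraries. The 13 fibroblast markers summed to 384, 210, 76.5 and 31.6 CPM and the 15 chondrocyte markers to 901, 937, 510 and 250 CPM in Graft_D40, Graft_D19, Sham_D40 and Ctrl. Fibroblast-like cells hold Piezo2 themselves, at 37.8 to 50.4 CPM outside Ctrl as a class and at more in those with a Tnmd UMI, as given below. The 5 Schwann cell markers summed to 11.2, 12.3, 16.8 and 10.98 CPM. The 4 lymphatic markers summed to 5.70, 4.48, 2.26 and 3.22 CPM, with Ccl21a at 0 in every library. The part of the fibroblast and chondrocyte markers in the Piezo2 difference was not tested.

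Cells with a Piezo2 UMI were set against the other sinusoidal-like cells of their own library, as a description, with the genes ranked by the smaller of their log2 ratios in the 2 grafted libraries after the values had been seen. There were 258, 267 and 70 such cells in Graft_D40, Graft_D19 and Sham_D40, with a median depth of 10196, 10913 and 9822 UMIs, against 8270, 8695 and 8810 UMIs in the 360, 800 and 760 cells without. The genes that led were Ccl2, Apln, Lamb1, Vwa1, Nid2, Aplnr, Ednrb, Pcdh17, Sparcl1 and Cd34. Apln, the ligand apelin known from sprouting vessels, was 120 CPM in cells with Piezo2 and 38.8 in cells without in Graft_D40, and 123 against 28.1 CPM in Graft_D19. Its receptor Aplnr was 581 against 242 CPM in Graft_D40, 718 against 258 in Graft_D19 and 617 against 225.5 in Sham_D40.

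Basement membrane genes were among those that led. Lamb1, a laminin chain, was 84.4 against 27.6 CPM in Graft_D40 and 113 against 15.0 CPM in Graft_D19, and the basement membrane linker Nid2 was 155 against 61.1 and 144 against 27.0 CPM. Cd34 was 498 against 237 CPM in Graft_D40, 366 against 59.8 in Graft_D19 and 208 against 23.1 in Sham_D40. The chemokine Ccl2 did not follow in Sham_D40, where it was 0 CPM in cells with Piezo2 and 3.24 in cells without.

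Among the genes lower in cells with Piezo2 were Ackr1, Cxadr, Clca3a1, Lipg, Rgs4, Sele, Adgrg6, Ubd and Afap1l2. Ackr1, the chemokine receptor of venules, was 27.8 against 230 CPM in Graft_D40, 52.7 against 341 in Graft_D19 and 160 against 574 in Sham_D40. Sele, the adhesion molecule E-selectin, was 16.8 against 147 CPM in Graft_D40, 77.2 against 293 in Graft_D19 and 138 against 357 in Sham_D40. Each of the genes named here was lower in Sham_D40 as well.

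Piezo1 was 138 CPM in cells with a Piezo2 UMI against 144 without in Graft_D40, a ratio of 0.956 (0.835 to 1.09), 116 against 147 in Graft_D19, a ratio of 0.790 (0.702 to 0.888), and 157 against 136 in Sham_D40, a ratio of 1.16 (0.943 to 1.41). In the same 3 libraries the ratio was 1.12, 1.17 and 1.22 for the shared endothelial gene Cdh5 and 1.15, 1.39 and 1.43 for Pecam1. Among sinusoidal genes it was 0.886, 0.905 and 1.04 for Stab1 and 0.636, 0.637 and 0.681 for Flt4. The Piezo1 ratio had an interval off 1 in Graft_D19 alone.

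The remaining endothelium held Piezo2 as well. In arterial-like cells it had 56 UMIs in 265 cells of Graft_D40 (25.4 CPM), 45 in 89 cells of Graft_D19 (60.9 CPM), 8 in 169 cells of Sham_D40 (7.64 CPM) and 0 in 72 cells of Ctrl. Graft_D40 over Sham_D40 was 3.32 (1.57 to 8.07) and was called higher, beside 4.78% of genes. The 10 cells with the most UMIs held 69.6% of the Piezo2 UMIs in Graft_D40 and 77.8% in Graft_D19. Ratio intervals, in this class as in the others, treat UMIs of the same cell as independent. Thinned to 2000 UMIs, 4.23% of cells (2.13 to 7.44) held a Piezo2 UMI in Graft_D40 and 0.602% (0.0153 to 3.31) in Sham_D40, with overlapping intervals. Graft_D19 over Ctrl has no ratio, with 0 UMIs in Ctrl, and its lower limit was 2.58, in a comparison that called 6.36% of genes higher. Piezo1 in the same cells was 109, 106, 87.9 and 86.0 CPM, with a ratio of 1.24 (0.974 to 1.60) for Graft_D40 over Sham_D40 and 1.23 (0.690 to 2.35) for Graft_D19 over Ctrl, neither of them called.

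In Graft_D40 and Graft_D19 the highest Piezo2 level of any class was that of mixed-marker endothelium, cells with more than 3 sinusoidal markers and at least as many arterial ones. These 43, 27, 16 and 5 cells held 144, 79, 15 and 0 UMIs in Graft_D40, Graft_D19, Sham_D40 and Ctrl, which is 186, 217, 94.3 and 0 CPM. In Sham_D40 the interval of 52.8 to 155 overlapped that of fibroblast-like cells, 40.3 to 62.2. Without thinning, a Piezo2 UMI was found in 65.1%, 59.3%, 31.3% and 0% of them, and up to 20 in a cell. Median depth fell in the same order, at 14643, 11335, 7991.5 and 4760 UMIs. Thinned to 2000 UMIs, the share in Graft_D40 was 18.6% (8.39 to 33.4). Graft_D40 over Sham_D40 was 1.97 (1.16 to 3.62), called higher beside 4.43% of genes. Piezo1 was 108 CPM in Graft_D40 and 93.5 in Graft_D19, against 62.8 in Sham_D40 and 139 in Ctrl on 10 and 4 UMIs.

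Other endothelium, with neither a sinusoidal, an arterial nor a capillary profile, held 58.2, 124, 35.6 and 30.0 CPM of Piezo2 on 84, 61, 17 and 12 UMIs in Graft_D40, Graft_D19, Sham_D40 and Ctrl. The ratio of 4.13 (2.20 to 8.43) for Graft_D19 over Ctrl was called higher, beside 11.6% of genes, and that of 1.63 (0.963 to 2.94) for Graft_D40 over Sham_D40 was not, beside 7.37%. Piezo1 was 105, 140, 119 and 70.0 CPM, and Graft_D19 over Ctrl, at 2.00 (1.27 to 3.23), was called higher, as was Sham_D40 over Ctrl at 1.70 (1.07 to 2.78), beside 12.3% of genes. Over Sham_D40, Graft_D19 was 1.18 (0.816 to 1.70) for Piezo1 and was not called. Ctrl held 28 Piezo1 UMIs in the class. Capillary-like cells (161, 52, 138 and 182 cells) held 5, 0, 0 and 0 Piezo2 UMIs, while their Piezo1 level was 96.0, 103, 112 and 92.0 CPM.

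In LepR-like stroma Piezo1 was higher in Graft_D40, and Piezo2 was held by few cells in any library. Piezo1 had 701 UMIs in 1662 cells of Graft_D40 (40.6 CPM, 37.6 to 43.7) and 470 in 2050 cells of Graft_D19 (27.6 CPM, 25.2 to 30.2), against 545 in 2276 cells of Sham_D40 (25.5 CPM, 23.4 to 27.7) and 188 in 1842 cells of Ctrl (25.5 CPM, 22.0 to 29.5). Graft_D40 lay above the other 3 libraries, whose intervals overlapped. Graft_D40 over Sham_D40 was 1.59 (1.42 to 1.79) and was called higher, beside 9.57% of genes, with 790 of 10738 genes having a larger log2 ratio. Taken as a mean of the cells' own CPM, which gives shallow cells equal weight, the ratio was 1.41 and fell under 1.5-fold. Graft_D19 over Ctrl was 1.08 (0.911 to 1.29), against a median of 0.26 on the log2 scale for all genes, and Sham_D40 over Ctrl was 0.997.

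More LepR-like cells of Graft_D40 held several Piezo1 UMIs, with 3 or more in 56, 12, 14 and 0 cells of Graft_D40, Graft_D19, Sham_D40 and Ctrl. The largest number in a cell was 14, 8, 8 and 2. Ctu2, which overlaps Piezo1, was 13.7, 13.4, 10.2 and 11.7 CPM in these cells.

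Piezo1 in LepR-like stroma went with matrix genes. With cells split by how many of 6 matrix markers (Col8a1, Col6a3, Fbln2, Postn, Cthrc1 and Timp1) they held, at limits chosen after the values had been seen, cells with 3 or more had 49.2, 34.2, 32.2 and 42.0 CPM of Piezo1 in Graft_D40, Graft_D19, Sham_D40 and Ctrl. Cells with 2 had 32.5, 32.0, 25.1 and 23.2 CPM, and cells with 0 or 1 had 30.1, 21.0, 24.2 and 25.4 CPM. Without thinning, cells with 3 or more were 33.5%, 15.5%, 9.31% and 2.88% of the class, and Ctrl was the shallowest library. The summed level of the 6 markers was 2450, 943, 573 and 456 CPM. Within these layers Graft_D40 over Sham_D40 was 1.53 (1.21 to 1.95) at 3 or more markers, 1.30 (1.05 to 1.61) at 2 and 1.25 (0.971 to 1.59) at 0 or 1.

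Piezo2 was near the limit of detection in LepR-like stroma, with 38, 26, 11 and 0 UMIs in Graft_D40, Graft_D19, Sham_D40 and Ctrl (2.20, 1.53, 0.514 and 0 CPM). Graft_D40 over Sham_D40 was 4.28 (2.15 to 9.29) and Graft_D19 over Sham_D40 was 2.97 (1.42 to 6.67), both past 1.5-fold with an interval off 1, at levels under the 5 CPM minimum of the counts over all genes. Graft_D19 over Ctrl has no ratio, with 0 UMIs in Ctrl, and its lower limit was 2.84. In Graft_D40, 25 of the 38 UMIs lay in 5 cells, in Graft_D19 23 of 26 lay in 5 cells, and in Sham_D40 6 of 11 lay in 3 cells. The intervals of the ratios treat UMIs of the same cell as independent and do not cover this clustering. Unthinned, 1.08%, 0.390%, 0.351% and 0% of cells held a Piezo2 UMI. The intervals of these shares overlapped between Graft_D19 (0.169 to 0.767) and Sham_D40 (0.152 to 0.691). The class also held 21, 64, 102 and 68 Stab2 UMIs. Per 100 Stab2 UMIs there were 181, 40.6, 10.8 and 0 Piezo2 UMIs in LepR-like stroma, against 22.6, 7.22, 1.21 and 0.192 in sinusoidal-like cells of the same libraries.

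Cells of the bone lineage, in which Piezo1 is known as the load sensor, showed no called difference in either gene in Graft_D40 over Sham_D40 or in Graft_D19 over Ctrl. Osteolineage-like cells (257, 271, 188 and 137 cells) had 36.0, 36.8, 37.8 and 28.2 CPM of Piezo1 in Graft_D40, Graft_D19, Sham_D40 and Ctrl. The ratio was 0.953 (0.764 to 1.19) for Graft_D40 over Sham_D40 and 1.30 (0.851 to 2.08) for Graft_D19 over Ctrl. In these comparisons 2.32% and 12.1% of genes were called higher and 14.3% and 10.6% lower. Piezo2 UMIs numbered 6, 4, 3 and 0 in osteolineage-like cells, with 0.991 CPM as the highest level.

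In chondrocyte-like cells Piezo1 was 28.9, 33.9, 38.4 and 22.1 CPM on 728, 609, 343 and 16 UMIs. Graft_D40 over Sham_D40 was 0.754 (0.662 to 0.860), below 1 but short of a 1.5-fold difference, while Graft_D40 over Ctrl was 1.31 (0.802 to 2.31), on the other side of 1. In Graft_D40 over Sham_D40, 2.86% of genes were called higher and 6.69% lower. Graft_D19 over Ctrl was 1.53 (0.937 to 2.70) and was not called either, beside 12.0% of genes called higher and 7.95% lower. Piezo2 was 6.72, 3.06, 8.50 and 1.38 CPM on 169, 55, 76 and 1 UMIs, with a ratio of 0.790 (0.599 to 1.05) for Graft_D40 over Sham_D40 and 2.22 (0.382 to 89.1) for Graft_D19 over Ctrl, neither of them called. The direction turned with the ungrafted library, with 4.87 (0.862 to 193) for Graft_D40 over Ctrl and 0.360 (0.250 to 0.516) for Graft_D19 over Sham_D40.

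Chondrocyte-like Piezo2 was highest in the cells without hypertrophy markers (Col10a1, Ihh and Panx3). Cells with none of the 3 had 14.9, 11.2 and 14.1 CPM in Graft_D40, Graft_D19 and Sham_D40, cells with 1 had 6.80, 2.31 and 6.98 CPM, and cells with 2 or 3 had 2.25, 0 and 1.59 CPM. The order was the same in these 3 libraries, and Ctrl held 1 Piezo2 UMI in the class. Piezo1 did not follow this order, at 27.7, 41.0 and 41.2 CPM with no hypertrophy marker and 34.2, 35.2 and 39.2 CPM with 2 or 3.

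Fibroblast-like cells (105, 73, 132 and 26 cells) were the class outside endothelium with the most Piezo2 per UMI. Cells with a UMI of Tnmd, the tendon and ligament gene tenomodulin, had 119, 117, 93.1 and 81.4 CPM of Piezo2 on 25, 28, 31 and 2 UMIs in Graft_D40, Graft_D19, Sham_D40 and Ctrl, against 21.7, 12.8, 40.04 and 11.1 CPM in cells without. The level was thus higher with Tnmd in Graft_D40, Graft_D19 and Sham_D40, while Ctrl held only 3 Piezo2 UMIs in the class. The 10 cells with the most UMIs held 83.3%, 88.6% and 61.6% of the class's Piezo2 UMIs in Graft_D40, Graft_D19 and Sham_D40. A few cells thus carry much of these levels, and the contrast without them was not tested. Piezo1 in fibroblast-like cells was 60.7, 61.0 and 61.5 CPM in Graft_D40, Graft_D19 and Sham_D40, and 26.2 in Ctrl on 3 UMIs. Pericyte-like cells held 25, 6, 3 and 0 Piezo2 UMIs, which is 19.6, 18.6, 7.53 and 0 CPM.

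**Figure D5:**
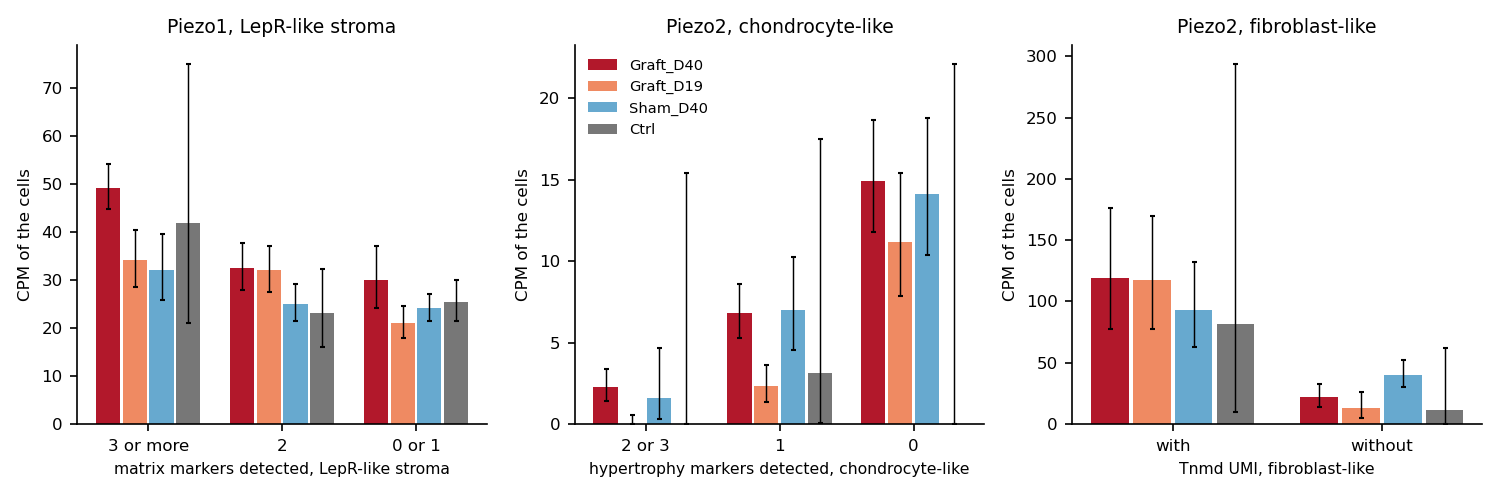
Levels in CPM within stromal classes with exact Poisson intervals as whiskers: Piezo1 in LepR-like stroma by matrix markers (left), Piezo2 in chondrocyte-like cells by hypertrophy markers (middle) and Piezo2 in fibroblast-like cells by a Tnmd UMI (right). Piezo1 is 49.2 CPM in Graft_D40 cells with 3 or more matrix markers, and Piezo2 is highest without hypertrophy markers and with Tnmd in Graft_D40, Graft_D19 and Sham_D40.

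Across the 32 class-by-library points with at least 50 cells, which cover 9 classes and share libraries, the genes whose log2(CPM + 1) was most like that of Piezo1 were Myzap (Pearson r = 0.970), Pik3c2b (0.951), Tpm3 (0.948), Clec1a (0.946) and Tek (0.946). Tek, the angiopoietin receptor Tie2, was 393, 395, 400 and 285 CPM in sinusoidal-like cells of Graft_D40, Graft_D19, Sham_D40 and Ctrl and at most 1.87 CPM in LepR-like stroma. Most like Piezo2 were Itga2 (0.839), Ttc9 (0.827), Pitpna (0.801), Fam124a (0.801) and Brk1 (0.777). Itga2, an integrin subunit that binds collagen, was 93.2 and 73.1 CPM in sinusoidal-like cells of Graft_D40 and Graft_D19, against 37.7 in Sham_D40 and 15.9 in Ctrl. Ttc9 followed that order, at 31.8, 11.5, 6.52 and 3.79 CPM in the same cells and libraries. Pitpna (182, 178, 158 and 148 CPM) and Brk1 (203, 196, 180 and 166 CPM) differed less between libraries. Fam124a, at 99.2, 115, 137 and 97.5 CPM, was highest in Sham_D40. Piezo1 and Piezo2 had r = 0.489 with each other over these points.

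Of 25 other mechanosensitive channel genes, 11 were measured in sinusoidal-like cells in Graft_D40 over Sham_D40, of which 1 was called higher and none lower, beside 8.16% and 7.31% of all genes, and their median log2 ratio was 0.00 beside 0.04 for all genes. The gene called higher was Kcnj2, a potassium channel that responds to flow, at 11.7 CPM against 5.85 (2.00-fold), named because it was the single call. Pkd1, at 70.3 against 49.4 CPM, had the largest ratio among channels at a mean of 20 CPM or more, 1.42 (1.24 to 1.64), and was not called. In Graft_D19 over Ctrl, 5 of 10 were called higher, among them Trpm7, Pkd1, Pkd2 and Tmem63b, beside 20.8% of all genes, with a median of 0.44 beside 0.19 for all genes. The same 5 were called higher in Sham_D40 over Ctrl, beside 20.6% of all genes.

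Of 14 partners and regulators of Piezo channels, 12 were measured in sinusoidal-like cells, with 1 called higher and 3 lower in Graft_D40 over Sham_D40, beside 8.16% of all genes called higher and 7.31% lower, and a median of -0.12. Pecam1, the junction protein of flow sensing, was 913 against 553 CPM. Stom, a relative of Stoml3, which tunes Piezo channels in mouse sensory neurons, was 135 against 265 CPM, a ratio of 0.508 (0.468 to 0.551), and Filip1l was 123 against 212 CPM. In Graft_D19 over Ctrl, 4 of 12 were called higher and none lower, beside 20.8% and 7.47% of all genes.

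Genes of the shear response, which follow flow in cultured endothelium, went both ways in Graft_D40 over Sham_D40, with 3 of 18 called higher and 4 lower, beside 8.16% and 7.31% of all genes, and a median of 0.10. Nos3, the endothelial nitric oxide synthase, was 90.2 against 30.6 CPM, a ratio of 2.95 (2.53 to 3.45), and Itgb1 was 877 against 492 CPM. The flow-induced transcription factor Klf4 was lower, at 306 against 655 CPM, as was Hexim1 at 60.0 against 139 CPM. Klf2 did not follow Klf4. It was 696 and 627 CPM in Graft_D40 cells with and without a Piezo2 UMI, against 486 and 443 in Sham_D40. In Graft_D19 over Ctrl, 4 of 17 were called higher, Nos3 and Itgb1 among them, and none lower, beside 20.8% and 7.47% of all genes. Of the YAP and TAZ genes, 4 of 15 were called higher in Graft_D40 over Sham_D40, such as Wwtr1 (the gene for TAZ) at 234 against 132 CPM, and 3 lower, such as Axl at 27.7 against 64.0 and Ccn1 at 22.3 against 46.8 CPM. Their median was 0.02, and the shares of all genes were again 8.16% and 7.31%. In Graft_D19 over Ctrl, 4 of 13 were higher and 1 lower, beside 20.8% and 7.47% of all genes. Of the 13 genes of the skeletal Piezo1 axis, 4 were measured in sinusoidal-like cells, and the cartilage collagen genes Col2a1 (312 against 166 CPM) and Col9a1 (29.3 against 10.8 CPM) were called higher in Graft_D40 over Sham_D40, beside 8.16% of all genes and the chondrocyte markers given above.

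In LepR-like stroma, Graft_D40 over Sham_D40 called 9.57% of all genes higher and 6.8% lower, and the counts that follow stand beside these shares. There 3 of 14 measured channels were called higher than in Sham_D40 (Trpv2, Tmem120a and Ano1) and none lower, with a median of 0.14 beside 0.01 for all genes. YAP and TAZ genes had 5 of 16 called higher and 1 lower, with a median of 0.16. The stretch-induced matrix proteins Ccn2 and Ccn1 were 991 against 471 and 253 against 125.5 CPM, and the receptor tyrosine kinase Axl was 113 against 34.7 CPM, while Crim1 was 136 against 206 CPM. Among partners and regulators 2 of 11 were higher, Filip1l at 32.7 against 9.62 and the actin cross-linker Flna at 306 against 201 CPM, and Cdh2 was lower at 338 against 537.5 CPM. Of shear response genes 2 of 14 were called higher (Foxc2 and Adm) and 1 lower (Hexim1). The skeletal Piezo1 axis had 3 of 9 measured genes called higher (Tnfsf11, Col9a1 and Ihh), with Tnfsf11, the osteoclast factor RANKL, at 106 against 45.7 CPM, and none lower.

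In Graft_D19 over Ctrl, LepR-like stroma had 7 of 13 channels and 10 of 16 YAP and TAZ genes called higher, beside 28.2% of all genes called higher. Sham_D40 over Ctrl gave 7 of 13 and 7 of 15, beside 26.7%. Piezo1 itself was called in neither comparison.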

How the data were processed

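The deposited matrices hold UMI counts per gene and cell barcode, made by the authors with Cell Ranger 5.0.0 per the file headers and with version 3.1.0 and mm10 per the submitters' processing notes; the conflict was not resolved. Libraries are 10x Genomics 3' v3.1, per the labels' protocols. Cells with at least 500 genes, 1000 UMIs and at most 10% mitochondrial UMIs were kept, without the 43 to 89 doublets per library that Scrublet (scanpy 1.11.5) marked at an expected 6%. Antibody features, 2 in Graft_D40 and in Sham_D40, were left out of all totals. Library totals were 72204599, 63214301, 51744386 and 18533482 gene UMIs in Graft_D40, Graft_D19, Sham_D40 and Ctrl.

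Classes were gated by marker counts: endothelium at 5 or more of 12 endothelial and at most 7 of 15 mesenchymal markers, arterial-like cells at 5 or more of 14 arterial and at most 3 sinusoidal markers, stroma at 4 or more mesenchymal and at most 3 endothelial markers, with the stromal class that had the highest share of its list and at least 40% of it. Cells that met no gate were 237 to 433 per library. UMIs were summed per class and library and given as CPM with exact Poisson 95% intervals, ratios with exact conditional binomial intervals and shares with Clopper-Pearson intervals (scipy 1.17.1). With 1 library per group no test was possible, so no p-value is given. Lists were counted over genes averaging at least 5 CPM, with a pseudocount of 1 CPM on the log2 scale. Genes named from a list are those with the largest ratios among genes averaging at least 20 CPM, and genes like Piezo1 or Piezo2 are the 5 with the highest r. The ratio intervals and calls were checked on simulated Poisson counts of pooled classes. Thinning was not simulated, and neither were UMIs clustered in a few cells. The 2 genes, the lists, the splits and the tests were chosen with earlier results of these data known. Alternatives were another depth minimum, doublets kept, Leiden clusters (28, at a resolution of 1), stricter gates, means over cells, size factors, the 10 top cells left out, the other ungrafted library and, added after seeing the data, all endothelial cells. Some genes that the naming rules would list are not reported here.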

Additional observations from a re-analysis of the deposited data

Results flagged for a closer look

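Piezo1 differed in opposite directions between classes in 2 comparisons, each with 1 of the ungrafted libraries, and neither difference was tested, since each group has 1 library. In Graft_D40 over Sham_D40 the Piezo1 ratio was 1.59 in LepR-like stroma and 0.754 in chondrocyte-like cells, so the first was 2.11 times the second. Over Ctrl in place of Sham_D40 the ratios were 1.59 and 1.31 (0.802 to 2.31), both above 1. In Graft_D19 over Ctrl it was 2.00 in other endothelium and 0.889 in sinusoidal-like cells, so the first was 2.25 times the second. Over Sham_D40 in place of Ctrl the ratios were 1.18 (0.816 to 1.70) and 0.995 (0.918 to 1.08), and both intervals include 1. Graft_D40 had 40.6 CPM of Piezo1 in LepR-like stroma, against 25.5 CPM in Sham_D40, and 28.9 CPM in chondrocyte-like cells, against 38.4 CPM in Sham_D40. Graft_D19 had 140 CPM in other endothelium on 69 UMIs, against 70.0 CPM in Ctrl on 28 UMIs, and 137 CPM in sinusoidal-like cells, against 155 CPM in Ctrl.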

How the results depend on the processing

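No paired analysis was possible because each group has 1 library. No called value changed direction. Of the values that answer the main comparisons, 46 stayed within their interval or within 1.5 times their count and 22 moved. Piezo2 in sinusoidal-like cells stayed above 1 under each alternative, at 4.80 to 42.6 for Graft_D40 over Sham_D40 and 3.94 to 81.4 for Graft_D19 over Ctrl. For Graft_D40 over Sham_D40 it was 8.49 without the 10 top cells, 42.6 over Ctrl in place of Sham_D40 and 4.80 over all endothelial cells. For Graft_D19 over Ctrl it was 13.7 as a mean over cells, 81.4 without the 10 top cells and 3.94 over Sham_D40. Piezo1 in sinusoidal-like cells was 0.914 for Graft_D40 over Ctrl, and for Graft_D19 0.774 with size factors over Ctrl and 0.995 over Sham_D40. Piezo1 in LepR-like stroma was 1.41 as a mean over cells for Graft_D40 over Sham_D40, under the 1.5-fold limit, and 0.891 with size factors for Graft_D19 over Ctrl, on the other side of 1 from the 1.08 given above. The cause of these shifts was not tested. The share of sinusoidal-like cells with a Piezo2 UMI was 41.7%, 25.0%, 8.43% and 1.31% unthinned in Graft_D40, Graft_D19, Sham_D40 and Ctrl, and 10.0%, 6.09%, 1.69% and 0.468% at 1000 UMIs per cell, as fewer UMIs per cell give fewer cells with a UMI. With no minimum level, 3 channel genes in sinusoidal-like cells and 6 in LepR-like stroma were higher in Graft_D40 over Sham_D40, and at a 2-fold limit 0 in sinusoidal-like cells and 3 in LepR-like stroma were higher in Graft_D19 over Ctrl. Among the 5 genes most like Piezo1 and Piezo2, 3 of 5 were shared for both with a pseudocount of 5 CPM. Depth limits Piezo2 in osteolineage-like cells, where its 0 to 6 UMIs per library could not show a difference.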
